A study of Mus musculus with 19 samples.

Results

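The 6 genes examined encode the platelet-derived growth factor (PDGF) ligands Pdgfa, Pdgfb, Pdgfc and Pdgfd and the receptors Pdgfra and Pdgfrb. They were taken by symbol from the E16.5 table of 20162 gene names and the E14.5 table of 24452 gene names, and each was found in both. The 19 poly(A) RNA libraries came from kidneys of CFW mouse embryos, to set nephron progenitors against stromal progenitors. At embryonic day E16.5, SIX2+ cells were sorted with an antibody from nephrogenic zone cells without a transgene, beside SIX2- cells and unsorted nephrogenic zone cells (NZC), with 3 libraries each, titled MARIS, a way to recover RNA after intracellular staining. GFP+ and GFP- cells were sorted at E16.5 from Six2TGC/+ kidneys, whose reporter is driven by Six2 regulatory sequence and can outlast Six2 itself, with 3 libraries each. At E14.5, Tdt+ and Tdt- cells were sorted from Foxd1Cre;Tdt kidneys (2 libraries each); Foxd1 drives the Cre, so Tdt+ cells include the descendants of Foxd1-expressing stroma as well as the progenitors. The labels do not say which libraries came from separate animals or pools, so a p-value here reflects no more than sample-to-sample spread, possibly technical.

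PDGF ligands form disulphide-linked dimers that pair receptor tyrosine kinases at the cell surface. PDGF-A and PDGF-C act mainly through the alpha receptor, PDGF-B binds both receptors, and PDGF-D acts mainly through the beta receptor; PDGF-C and PDGF-D are secreted with a CUB domain that proteases must remove. In the developing kidney, PDGF-B from capillary endothelium recruits mesangial cells and pericytes that carry the beta receptor, and the alpha receptor marks interstitial fibroblasts. Levels below are the deposited values in RPKM, which are read counts divided by gene length and library depth, so that levels of different genes can be compared. Differences are in log2(RPKM + 1), a scale that understates changes of low genes. Because these are bulk samples, fewer cells of a type and less RNA per cell cannot be told apart.

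The ligand genes and the alpha receptor gene lie on mm10 chromosome 5 (Pdgfra, 75152292 to 75198215, plus strand, and Pdgfa, 138976014 to 138997370, minus strand), chromosome 15 (Pdgfb, 79995874 to 80014977, minus), chromosome 3 (Pdgfc, 81036416 to 81214040, plus) and chromosome 9 (Pdgfd, 6168584 to 6378850, plus), as annotated in GENCODE M21. Promoter windows from RefSeq (GRCm38.p6, from 250 bases before to 50 after a start) are shown for Pdgfa and Pdgfc, the ligands with most RNA in progenitors, and for the stromal receptor Pdgfra, whose opposite levels the results turn on. Each window reads 5′ to 3′ on the gene's strand, and capitals mark matches, on either strand, to a TATA box (TATAAA), a GC box (GGGCGG), a WT1 and EGR1 site (GCGGGGGCG) or a SIX2 site (TCAGGTTTC).
Pdgfa, chr5:138994895-138995194, minus strand: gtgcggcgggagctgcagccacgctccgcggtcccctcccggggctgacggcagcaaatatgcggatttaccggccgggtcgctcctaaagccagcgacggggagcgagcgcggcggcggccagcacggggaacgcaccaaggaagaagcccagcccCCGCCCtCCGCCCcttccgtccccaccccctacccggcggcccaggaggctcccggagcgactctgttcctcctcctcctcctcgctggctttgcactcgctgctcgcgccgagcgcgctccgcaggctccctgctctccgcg
Pdgfc, chr3:81036166-81036465, plus strand: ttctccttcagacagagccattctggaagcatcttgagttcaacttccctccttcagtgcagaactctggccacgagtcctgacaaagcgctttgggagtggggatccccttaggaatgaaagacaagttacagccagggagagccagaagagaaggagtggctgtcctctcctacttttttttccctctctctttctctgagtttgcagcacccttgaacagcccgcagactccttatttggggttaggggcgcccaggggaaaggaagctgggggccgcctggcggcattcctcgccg
Pdgfra, chr5:75152001-75152300, plus strand: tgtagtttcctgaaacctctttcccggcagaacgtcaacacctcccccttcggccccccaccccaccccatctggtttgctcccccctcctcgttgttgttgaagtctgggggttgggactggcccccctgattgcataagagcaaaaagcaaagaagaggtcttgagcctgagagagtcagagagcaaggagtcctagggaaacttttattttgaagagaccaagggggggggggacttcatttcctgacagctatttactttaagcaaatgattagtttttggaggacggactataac
The Pdgfa window, 1 of 2 in the table, is 73.3% G and C and holds 37 CG dinucleotides and 2 GC boxes, both on the opposite strand. The Pdgfc window is 55.0% G and C with 8 CG dinucleotides, and the Pdgfra window 51.0% with 5. The medians over the 32851 promoter windows are 52.7% and 7. Neither the Pdgfc nor the Pdgfra window holds any of the 4 motifs. Over all windows 35.7% hold a GC box, 13.6% a TATA box, 2.91% the WT1 and EGR1 letters and 0.429% the SIX2 letters. Pdgfd had 1 TATA box in its window. A match or its lack says nothing of binding.

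Six2 and Foxd1 matched the labels in direction. Six2 averaged 351 ± 92.6 RPKM in SIX2+ and 19.6 ± 23.6 in SIX2- cells, and 335 ± 20.4 in GFP+ and 7.45 ± 8.08 in GFP- cells (SD, n = 3 each). Foxd1 averaged 153 in Tdt+ cells (205 and 102) and 27.5 in Tdt- cells (29.9 and 25.2, n = 2 each). It was called higher in Tdt+ cells (2.35 ± 0.34, limma adjusted p = 0.00585), but not without the filter on low values (0.0916). The difference was 2.47 without Tdt- library 1 and 2.23 without Tdt- library 2, and was not called in either fit, each left with 1 Tdt- library. Foxd1 was also present in progenitor fractions, at 22.9 RPKM in SIX2+ and 36.0 in GFP+ cells, against 72.7 in SIX2- and 78.7 in GFP- cells. Estimated depth was 26000000 to 45500000 reads in 14 of the 15 E16.5 libraries and 3080000 reads in NZC library 2. It was 9430000 and 8370000 reads in Tdt+ libraries, against 30300000 and 26200000 reads in Tdt- libraries. All 6 genes passed the filter on low values in both tables. At E16.5 Pdgfb, Pdgfd and Pdgfra passed it through SIX2-, GFP- and NZC libraries alone, and at E14.5 Pdgfb passed it through Tdt- libraries alone. SIX2+ libraries held few interstitial matrix or endothelial transcripts: summed RPKM of 9 interstitial matrix markers was 22.8 to 25.7 in SIX2+ libraries, against 1131 to 1752 in SIX2- libraries, and that of 12 endothelial markers was 4.66 to 7.44, against 67.9 to 212. Cortical stroma markers were not absent. Their summed RPKM, over 8 genes, was 178 to 238 in SIX2+ libraries, against 667 to 951 in SIX2- libraries. It was 352 to 387 in GFP+ libraries, against 924 to 1172 in GFP- libraries.

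Nephron progenitors of either sort held little receptor RNA, and the ligands Pdgfc and Pdgfa had their highest E16.5 group means there. The mean of Pdgfra was 207-fold lower in SIX2+ than in SIX2- cells and 220-fold lower in GFP+ than in GFP- cells, and that of Pdgfrb 54.4-fold and 38.6-fold lower. Pdgfc was 5.69-fold higher in SIX2+ and 4.67-fold higher in GFP+ cells. Pdgfb and Pdgfd were on the receptor side, low in progenitors. In SIX2+ against SIX2- cells 1 of 6 genes rose and 4 fell, where 8.37% of all 12817 genes tested were called higher and 15.9% lower. In GFP+ against GFP- cells 2 rose and 4 fell, where 15.9% of tested genes rose and 17% fell. In both sorts the falls include Pdgfb, Pdgfd and Pdgfra, which passed the filter only through SIX2-, GFP- and NZC libraries. Such genes could be called lower in progenitors but hardly higher, so the counts of falls are description only.

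**Figure D1:**
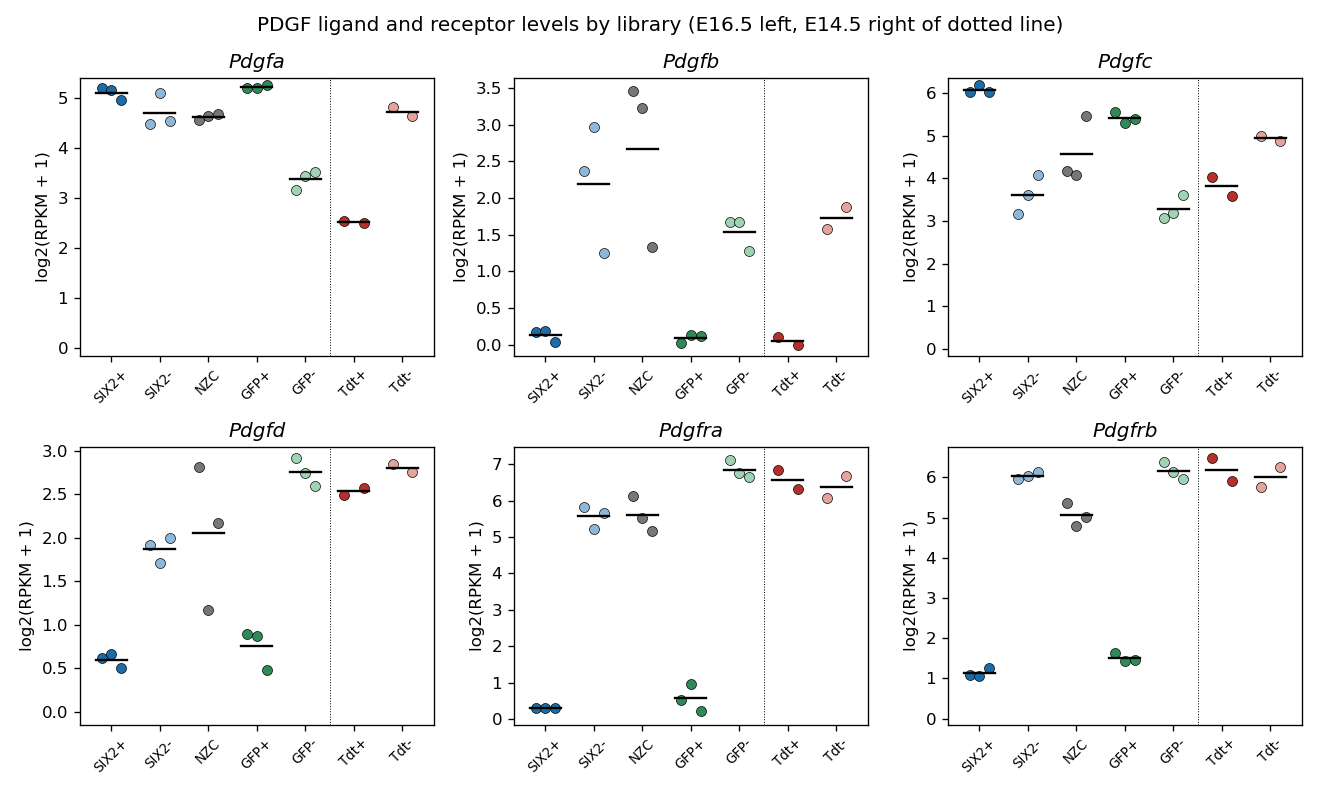
Level of each gene, as log2(RPKM + 1), in every library of 7 groups, with a bar at the mean of a group; the E16.5 and E14.5 tables, on either side of the dotted line, were normalised separately. Pdgfra and Pdgfrb sit near the floor in the SIX2+ and GFP+ libraries alone, and Pdgfc is highest in the SIX2+ libraries.

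Pdgfra, the alpha receptor, had 0.228, 0.227 and 0.226 RPKM in SIX2+ libraries 1, 2 and 3, against 55.2, 36.3 and 49.7 RPKM in SIX2- libraries. The SIX2+ values correspond to about 62.1, 104 and 97.7 reads and are far apart from all SIX2- values. Pdgfra fell by 5.27 ± 0.24 on the log2 scale (SE, limma adjusted p = 4.08e-09). In the reporter sort Pdgfra had 0.432, 0.951 and 0.175 RPKM in GFP+ libraries, against 138, 107 and 98.6 RPKM in GFP- libraries. It fell by 6.26 ± 0.24 (limma adjusted p = 8.65e-10), with no overlap between the groups. GFP+ library 2 stood above the other GFP+ libraries and yet below every GFP- library. The fall held in SIX2+ and in GFP+ cells under every scaling, filter and pseudocount tried and with each library left out.

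Pdgfrb, the beta receptor of pericytes and mesangial cells, lies on mm10 chromosome 18 (61045150 to 61085061, plus strand). It had 1.13, 1.09 and 1.37 RPKM in SIX2+ libraries, against 61.2, 64.9 and 69.1 RPKM in SIX2- libraries. It fell by 4.91 ± 0.15 (limma adjusted p = 1.93e-10). In the reporter sort Pdgfrb had 2.07, 1.70 and 1.74 RPKM in GFP+ libraries, against 82.1, 69.0 and 61.3 RPKM in GFP- libraries, and fell by 4.65 ± 0.15 (limma adjusted p = 2.03e-10). Progenitors therefore held more beta than alpha receptor RNA, although both were low: Pdgfra made up 14.1% to 17.2% of receptor RPKM in SIX2+ libraries, against 35.9% to 47.4% in SIX2- libraries. In GFP+ libraries it made up 9.15% to 35.9%, against 60.7% to 62.7% in GFP- libraries. Of 12 markers of mural cells, which are known for the beta receptor, 11 were tested. In SIX2+ cells 8 fell and 1 rose (median -1.86), where 15.9% of all genes tested fell and 8.37% rose. In GFP+ cells 9 fell and 1 rose (median -2.39), where 17% of all genes tested fell and 15.9% rose. In SIX2+ cells Rgs5 (-4.32 ± 0.31), Acta2 (-4.21 ± 0.55) and Kcnj8 (-4.13 ± 0.28) fell most and Des rose (1.44 ± 0.24), markers picked after their values were seen. Higd1b was at 0 in all GFP+ libraries. Their summed RPKM, in which these members offset each other, was 94.1 to 112 in SIX2+ libraries, against 180 to 309 in SIX2- libraries. Of the 12, 6 averaged under 1 RPKM in SIX2+ and 6 in GFP+ cells, against 1 in SIX2- and 1 in GFP- cells. Markers so low in progenitors could hardly have been called higher there, so the counts of falls are description only. The part of mural cell RNA in the Pdgfrb difference was not tested.

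Pdgfc, an alpha receptor ligand, had 64.2, 71.6 and 64.2 RPKM in SIX2+ libraries, against 7.97, 11.2 and 15.9 RPKM in SIX2- libraries. Every SIX2+ library lay far above every SIX2- library. Pdgfc rose by 2.46 ± 0.31 (limma adjusted p = 3.61e-05). In the reporter sort it had 46.0, 38.1 and 40.6 RPKM in GFP+ libraries, against 7.38, 8.18 and 11.1 RPKM in GFP- libraries, and rose by 2.12 ± 0.31 (limma adjusted p = 0.000105). In both negative fractions library 3 held the most Pdgfc, and these were also the negative libraries with the most Six2, at 46.8 RPKM in SIX2- and 16.8 in GFP- library 3. The part of carried-over progenitors in those values was not tested. Without SIX2- library 3 the Pdgfc difference was 2.69, and without GFP- library 3 it was 2.27, both still called.

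Pdgfa, the other alpha receptor ligand, differed between the sorts. It had 36.0, 35.7 and 37.3 RPKM in GFP+ libraries, against 8.01, 9.82 and 10.5 RPKM in GFP- libraries, and rose by 1.85 ± 0.16 (limma adjusted p = 5.65e-07). In the antibody sort it had 35.9, 34.8 and 30.4 RPKM in SIX2+ libraries, against 21.3, 33.4 and 22.3 RPKM in SIX2- libraries. SIX2- library 2 lay within the SIX2+ range, and Pdgfa was not called there (0.41 ± 0.16, limma adjusted p = 0.0768). Without that library it was called higher in SIX2+ cells (0.60, limma adjusted p = 0.00679). Between SIX2+ and GFP+ cells Pdgfa was not called (-0.11, 95% interval -0.44 to 0.23), and it was higher in SIX2- than in GFP- cells (1.33 ± 0.16, limma adjusted p = 0.000546). The difference between the sort effects was itself called (-1.44 ± 0.22, limma adjusted p = 0.0266), 1 of 18 genes called (0.14% of those tested, 0.0468% higher and 0.0936% lower). The other 5 genes were not called for it, Pdgfra at 0.99 ± 0.35 (adjusted p = 0.479) coming nearest. Pdgfa lost that call without any 1 of the 3 GFP+ libraries (adjusted p = 0.0826, 0.0833 and 0.104), the 3 GFP- libraries (0.0743, 0.0764 and 0.0582) or the 3 SIX2+ libraries (0.0561, 0.0644 and 0.109). Summed RPKM of 8 early nephron markers, other epithelial precursors of the zone, was 200 to 349 in SIX2- libraries, against 114 to 143 in GFP- libraries, and that of 7 ureteric markers was 56.5 to 69.2, against 28.2 to 43.8. Their part in the Pdgfa difference was not tested. Sort method, genotype and labelled source, zone cells or kidneys, differ together between the sorts and cannot be told apart.

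Pdgfb, the ligand of endothelium and platelets, had 0.124, 0.134 and 0.0235 RPKM in SIX2+ libraries, against 4.14, 6.79 and 1.37 RPKM in SIX2- libraries. SIX2+ values rested on an estimated 14.1, 25.3 and 4.22 reads, rough figures because whole reads were not recovered. Pdgfb fell by 2.06 ± 0.47 (limma adjusted p = 0.00484). In the reporter sort it had 0.0160, 0.0958 and 0.0844 RPKM in GFP+ libraries, against 2.18, 2.18 and 1.41 RPKM in GFP- libraries, and fell by 1.44 ± 0.47 (limma adjusted p = 0.0304). That call was lost with a pseudocount of 5 (adjusted p = 0.196), after quantile normalisation (0.104), with no filter on low values (0.0581), and without GFP+ library 1, 2 or 3 (0.0757, 0.0682 and 0.0696) or GFP- library 1 or 2 (0.0857 and 0.0848), although the groups did not overlap.

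Across groups Pdgfb and the endothelial markers varied together, though not library by library where Pdgfb was near 0. Tdt+ library 2 had more endothelial RPKM than Tdt+ library 1 (34.0 against 23.8) but Pdgfb at 0. GFP+ library 3 had the least endothelial RPKM of its group (6.65) but more Pdgfb than GFP+ library 1 (0.0844 against 0.0160 RPKM). Pdgfb was 0.505% to 2.20% of the summed endothelial RPKM in SIX2+ libraries, against 2.02% to 3.21% in SIX2- libraries, and 0.205% to 1.27% in GFP+ libraries, against 1.95% to 2.51% in GFP- libraries. At E14.5 the share was 0.301% and 0% in Tdt+ libraries, against 1.71% and 1.81% in Tdt- libraries. In NZC libraries 1, 2 and 3 it was 2.58%, 3.28% and 2.61%, although the Pdgfb levels there were as far apart as 9.98, 8.32 and 1.504 RPKM. Library 3 of each antibody-sort group was lowest in Pdgfb, and those libraries were also lowest in endothelial RPKM, at 4.66 in SIX2+, 67.9 in SIX2- and 57.5 in NZC library 3. Summed RPKM of 6 megakaryocyte and platelet markers was 0.243 to 0.501 in SIX2+ libraries, against 7.48 to 12.1 in SIX2- libraries. It was 0.357 to 0.912 in GFP+ libraries, against 8.30 to 10.96 in GFP- libraries, and 0.637 to 6.19 in NZC libraries. The 2 markers tested, Pf4 and Gp1bb, were called lower in SIX2+ cells (-3.11 and -1.25) and in GFP+ cells (-2.94 and -0.63). Both stayed under 1 RPKM in every SIX2+ and GFP+ library and passed the filter through other libraries alone. They could hardly have been called higher, so these calls are description only. Gp9 was at 0 in all SIX2+, SIX2- and GFP+ libraries. The part of endothelial or platelet RNA in the Pdgfb differences was not tested.

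**Figure D2:**
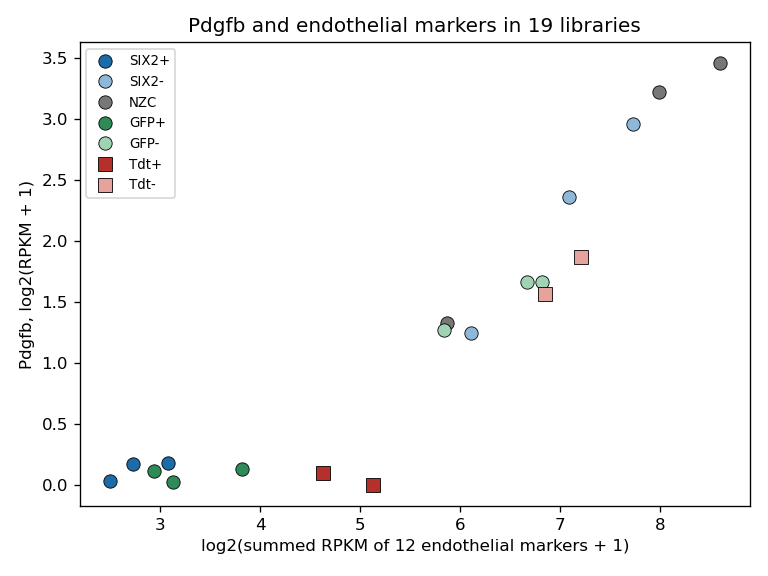
Pdgfb, as log2(RPKM + 1), against the summed RPKM of 12 endothelial markers on the same scale, 1 point per library (circles E16.5, squares E14.5). From an endothelial sum of 56.3 RPKM upward Pdgfb rises with the markers, and it is near 0 in the SIX2+, GFP+ and Tdt+ libraries.

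Pdgfd, a beta receptor ligand, had 0.529, 0.584 and 0.411 RPKM in SIX2+ libraries, against 2.78, 2.26 and 3.005 RPKM in SIX2- libraries, and fell by 1.28 ± 0.30 (limma adjusted p = 0.00554). In the reporter sort it had 0.864, 0.828 and 0.398 RPKM in GFP+ libraries, against 6.57, 5.71 and 5.04 RPKM in GFP- libraries, and fell by 2.003 ± 0.30 (limma adjusted p = 0.000139). The groups did not overlap in either sort. Pdgfd thus had its highest E16.5 group mean in GFP- cells, at 5.77 ± 0.766 RPKM (SD, n = 3), and made up 18.0% to 27.2% of ligand RPKM there, against 0.433% to 0.545% in SIX2+ cells. Between the negative fractions it was 2.68 ± 0.380 RPKM in SIX2- and 5.77 RPKM in GFP- cells, with no overlap, but was not called (-0.88 ± 0.30, limma adjusted p = 0.0756; 0.0454 with replicate numbers as a block, 0.0356 after quantile normalisation, 0.0497 with a pseudocount of 5 and 0.00559 without NZC library 2 in the fit).

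**Figure D3:**
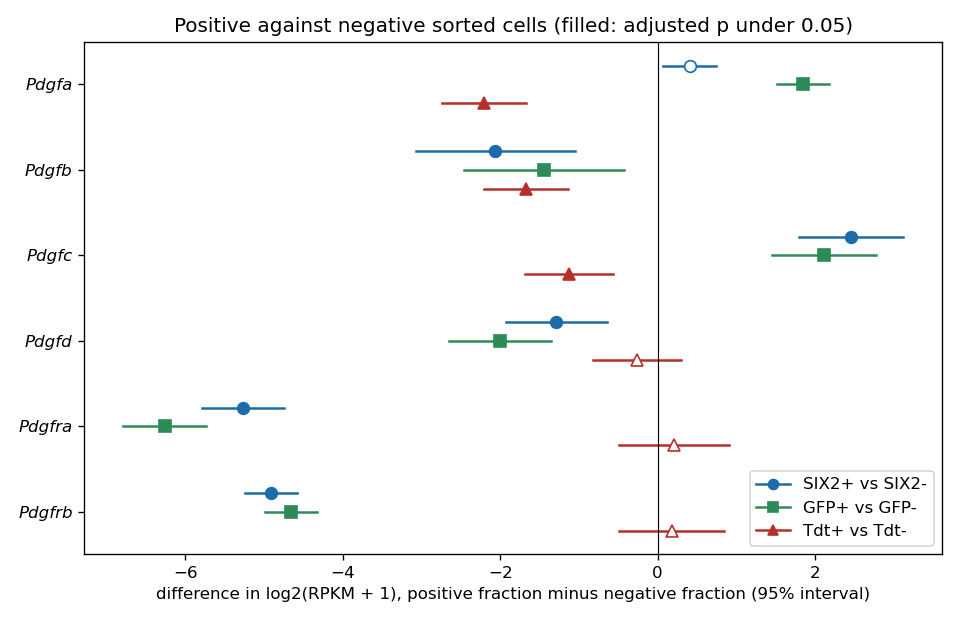
Difference in log2(RPKM + 1) between positive and negative sorted cells for each gene, with 95% intervals; filled symbols have an adjusted p under 0.05. In the SIX2 and GFP sorts the receptors lie between -6.26 and -4.65 and Pdgfc above 2, whereas in the Tdt sort both receptors lie near 0 and the ligands Pdgfa, Pdgfb and Pdgfc below it.

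Summed over the ligands, RPKM was 94.98 to 107 in SIX2+ libraries, against 36.1 to 53.7 in SIX2- libraries, and 74.6 to 83.0 in GFP+ libraries, against 24.1 to 28.1 in GFP- libraries. Receptor sums ran the other way, at 1.32 to 1.60 in SIX2+ libraries, against 101 to 119 in SIX2- libraries, and at 1.91 to 2.65 in GFP+ libraries, against 160 to 220 in GFP- libraries. Progenitors thus had ligand RNA with little receptor RNA. Pdgfc and Pdgfa made up nearly all of the progenitor ligand sum: Pdgfc had 63.7% to 67.6% in SIX2+ libraries and 51.0% to 55.5% in GFP+ libraries, and Pdgfb and Pdgfd together had the small remainder beside Pdgfa. The ratio of Pdgfc to Pdgfa RPKM was 1.79, 2.06 and 2.12 in SIX2+ libraries, against 1.28, 1.07 and 1.09 in GFP+ libraries, without overlap. Of the 6 genes 0 were called between SIX2+ and GFP+ cells with limma, where the background was 3.07% (0.772% for rises and 2.3% for falls). At an unadjusted p under 0.05 there were 2, Pdgfc (0.67 ± 0.31, adjusted p = 0.311) and Pdgfrb (-0.37 ± 0.15, adjusted p = 0.256).

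**Figure D4:**
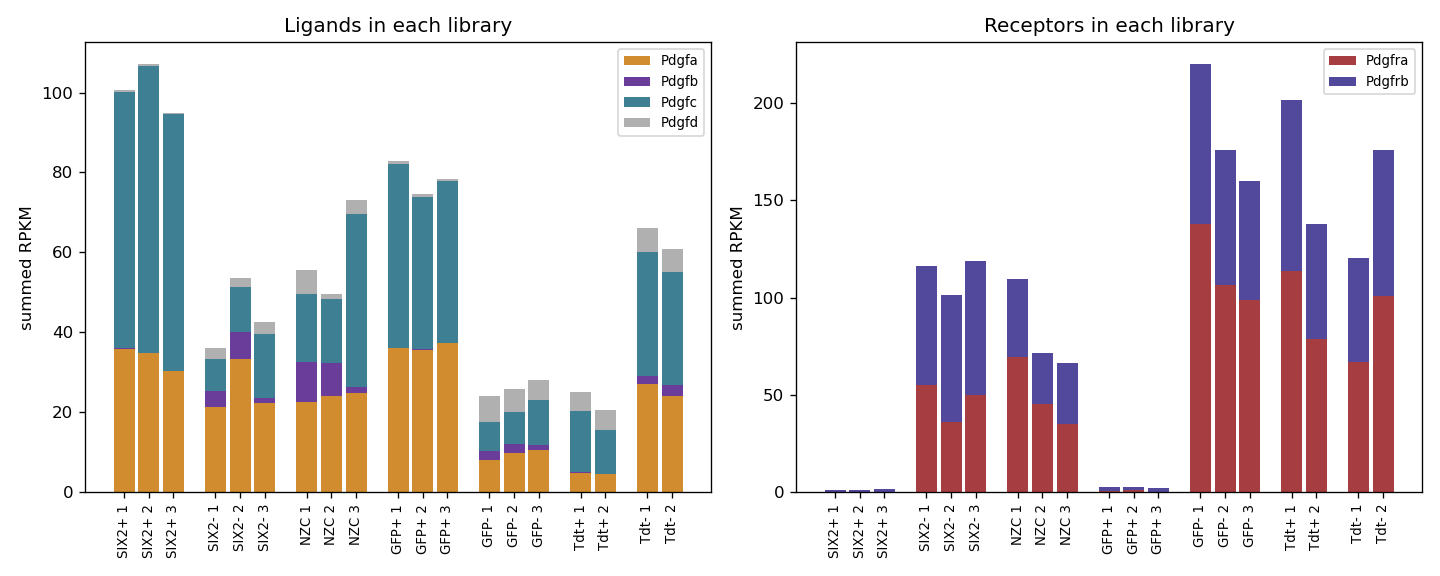
Summed RPKM of the 4 ligands (left) and the 2 receptors (right) in each of 19 libraries, stacked by gene. The tall ligand bars of the SIX2+ and GFP+ libraries stand beside receptor bars of 2.65 RPKM or less.

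The negative fractions, which hold the stroma, differed in alpha receptor level. Pdgfra averaged 47.1 ± 9.72 RPKM in SIX2- cells of the nephrogenic zone and 114 ± 20.8 in GFP- cells of the kidney (SD, n = 3 each), and fell by 1.27 ± 0.24 in SIX2- relative to GFP- cells (limma adjusted p = 0.00766). Pdgfrb averaged 65.1 ± 3.95 RPKM in SIX2- cells and 70.8 ± 10.5 in GFP- cells and was not called (-0.11, 95% interval -0.44 to 0.22, limma adjusted p = 0.675). The ratio of Pdgfra to Pdgfrb RPKM was 0.902, 0.559 and 0.719 in SIX2- libraries, against 1.68, 1.54 and 1.61 in GFP- libraries. These ratios did not overlap and differed by -1.16 in log2 with 1 added to each level (exact permutation p = 0.1, two-sided, the smallest that 3 against 3 libraries allow). Pdgfb and Pdgfc were not called (0.65, 95% interval -0.36 to 1.67, and 0.33, -0.33 to 0.99). Of the 6 genes Pdgfa rose and Pdgfra fell in SIX2- cells, where 10.1% of genes were called, 5.7% higher and 4.42% lower. The Pdgfra call was lost without GFP- library 1 (adjusted p = 0.0507) or SIX2- library 2 (0.057). Sort method, genotype and the labelled source, zone cells or kidneys, differ together here and cannot be told apart. Summed interstitial matrix RPKM was 1131 to 1752 in SIX2- libraries, against 2055 to 3125 in GFP- libraries, and its part in the Pdgfra difference was not tested.

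Unsorted nephrogenic zone cells lay between the sorted fractions for Pdgfrb, with 39.9, 26.6 and 31.3 RPKM, but not for every gene. NZC library 1 had 69.5 RPKM of Pdgfra, above the highest SIX2- library at 55.2, and 6.03 RPKM of Pdgfd, above the highest SIX2- library at 3.005. Pdgfc was 17.0 and 15.95 RPKM in NZC libraries 1 and 2 but 43.2 in library 3, which also had 166 RPKM of Six2, against 65.2 and 68.1 in the others. In SIX2+ against NZC cells Pdgfa and Pdgfc rose (0.48 ± 0.16 and 1.505 ± 0.31, limma adjusted p = 0.0272 and 0.00224), and the other 4 genes fell, where 18.1% of tested genes rose and 18.5% fell. The Pdgfa call was lost in TPM (adjusted p = 0.0827), after quantile normalisation (0.101), and without NZC library 1 (0.0681) or SIX2+ library 1 (0.0884) or 2 (0.0748). The 4 that fell were Pdgfra (-5.32 ± 0.24), Pdgfrb (-3.92 ± 0.15), Pdgfb (-2.54 ± 0.47) and Pdgfd (-1.46 ± 0.30), with limma adjusted p between 2.19e-09 and 0.00232. Of these, Pdgfra, Pdgfb and Pdgfd passed the filter only through SIX2-, GFP- and NZC libraries and could hardly have been called higher. In SIX2- against NZC cells, a comparison that shares the NZC libraries, Pdgfrb rose (0.99 ± 0.15, limma adjusted p = 0.00242) and 0 fell with limma, where 5.16% of tested genes rose and 5.95% fell. The differences of Pdgfa, Pdgfb, Pdgfd and Pdgfra lay between -0.48 and 0.08 (limma adjusted p = 0.507 to 0.91). Pdgfc alone of those not called had an unadjusted p under 0.05 there (-0.95 ± 0.31, adjusted p = 0.058). It was called lower in SIX2- cells with replicate numbers as a block (adjusted p = 0.0326), and without NZC library 1 (0.031), NZC library 2 (0.0348) or SIX2- library 3 (0.0486). Pdgfb was called lower without NZC library 3 (-1.15, adjusted p = 0.0416).

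At E14.5 the pattern differed: receptors were abundant on both sides of the Foxd1 lineage sort, and 3 of the 4 ligands were lower inside it. Pdgfra had 114 and 78.7 RPKM in Tdt+ libraries 1 and 2, against 66.9 and 101 RPKM in Tdt- libraries, and Pdgfrb had 87.8 and 59.0, against 53.5 and 75.2. The groups overlapped for both, and neither was called (0.20 ± 0.30 and 0.18 ± 0.29, limma adjusted p = 0.731 and 0.753); both differences turned to just below 0 in TPM. The 95% intervals, -0.50 to 0.90 for Pdgfra and -0.49 to 0.85 for Pdgfrb, leave room for changes of either sign. The alpha receptor share was 56.4% and 57.2% in Tdt+ libraries, against 55.5% and 57.2% in Tdt- libraries (exact permutation p = 1.0 for the log2 ratio, two-sided; 2 against 2 libraries cannot give less than 0.333). Tdt- cells were not free of stroma by these markers: summed interstitial matrix RPKM was 1466 to 2207 in Tdt+ libraries, against 2393 to 3295 in Tdt- libraries, while summed cortical stroma RPKM was 1500 to 1564, against 472 to 513. No marker of either list was at 0 in Tdt- libraries, and their part in the receptor values was not tested.

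Pdgfa had 4.87 and 4.66 RPKM in Tdt+ libraries, against 27.1 and 24.1 RPKM in Tdt- libraries, and fell by 2.20 ± 0.23 (limma adjusted p = 0.00182). The groups did not overlap, with means of 4.76 RPKM in Tdt+ and 25.6 RPKM in Tdt- cells. Pdgfb had 0.0717 RPKM, about 2.81 reads, in Tdt+ library 1 and was listed at 0 in Tdt+ library 2, against 1.97 and 2.66 RPKM in Tdt- libraries, and fell by 1.67 ± 0.23 (limma adjusted p = 0.00524). Of the 12 endothelial markers, summing to 23.8 and 34.0 in Tdt+ libraries, 7 averaged under 1 RPKM there and Flt1 was at 0, against a sum of 115 and 147 in Tdt- libraries. Pdgfc had 15.4 and 11.01 RPKM in Tdt+ libraries, against 30.9 and 28.3 RPKM in Tdt- libraries, and fell by 1.12 ± 0.24 (limma adjusted p = 0.0281). Pdgfd had 4.64 and 4.96 RPKM in Tdt+ libraries, against 6.19 and 5.74 RPKM in Tdt- libraries, and was not called (-0.26 ± 0.24, limma adjusted p = 0.561). Of the 6 genes 3 fell, where 8.43% of genes were called and 7.21% called lower. None of the 6 rose with limma, adjusted or at an unadjusted p under 0.05, where 1.22% were called higher. Pdgfb passed the filter through Tdt- libraries alone and could hardly have been called higher. Without a filter on low values Pdgfb (adjusted p = 0.0507) and Pdgfc (0.101) lost their calls, and Pdgfc also lost its call without Tdt- library 1 (0.319) or 2 (0.267). Tdt- cells include the nephron progenitors, with Six2 at 1.39 RPKM in Tdt+ cells and 107 in Tdt- cells.

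Within the stromal Tdt+ cells Pdgfc was the leading ligand, with 61.6% and 53.4% of ligand RPKM, against 46.7% and 46.6% in Tdt- libraries, and Pdgfd made up 18.6% and 24.0%, against 9.36% and 9.44%. Set in order at E16.5, Pdgfc ran from SIX2+ to GFP+, NZC, SIX2- and GFP- cells (66.7, 41.6, 25.4, 11.7 and 8.90 RPKM), with overlapping ranges between GFP+ and NZC and between SIX2- and GFP- cells. Pdgfa ran from GFP+ to SIX2+, SIX2-, NZC and GFP- cells (36.3, 33.7, 25.6, 23.8 and 9.43 RPKM), and its only gap without overlap was that above GFP- cells. For Pdgfra the order was GFP-, NZC, SIX2-, GFP+ and SIX2+ (114, 49.9, 47.1, 0.520 and 0.227 RPKM), with overlap between NZC and SIX2- and between GFP+ and SIX2+ cells. For Pdgfrb it was GFP-, SIX2-, NZC, GFP+ and SIX2+ (70.8, 65.1, 32.6, 1.84 and 1.20 RPKM), and only GFP- and SIX2- cells overlapped. Pdgfb ran from NZC to SIX2-, GFP-, SIX2+ and GFP+ cells, and Pdgfd from GFP- to NZC, SIX2-, GFP+ and SIX2+ cells; in each, neighbours overlapped except at the step into the progenitor fractions.

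Over the 15 E16.5 libraries, which share the same 5 groups, the receptors followed each other (Pearson r = 0.983 on log2 values), Pdgfd followed Pdgfra (0.925) and Pdgfc ran against both (-0.897 with Pdgfra and -0.908 with Pdgfrb). Among 8567 genes with a mean of at least 5 RPKM, the nearest in pattern to Pdgfra were Ddr2, a collagen receptor, and Col6a3 and Col6a2, collagen VI chains (r = 0.998, 0.998 and 0.996). Near to Pdgfrb were Bgn, a proteoglycan, and Lrrc17 (r = 0.996 and 0.994). Nearest to Pdgfc were Fgf1, a fibroblast growth factor, Btbd11 and Meox1, a homeobox gene of nephron progenitors (r = 0.986, 0.985 and 0.983). Fgf1 averaged 19.2 RPKM in SIX2+ and 1.23 in SIX2- cells, and Meox1 44.7 and 4.21. Nearest to Pdgfa were Bcam, a laminin receptor of epithelia, Smtnl2 and Slc9a3r1, an epithelial scaffold protein (r = 0.951, 0.942 and 0.942). Nearest to Pdgfb were Gimap4, Pecam1, an endothelial adhesion molecule, and S100a16 (r = 0.987, 0.981 and 0.978), and nearest to Pdgfd were Wwtr1, a Hippo pathway coactivator, Cast, a calpain inhibitor, and Wnt5a, a Wnt ligand (r = 0.986, 0.977 and 0.972). Col6a3 and Bgn are also in the interstitial matrix list, and Pecam1 in the endothelial list. At E14.5, in libraries not used for this ranking, Bcam was at 10.2 RPKM in Tdt+ and 66.1 in Tdt- cells, Pecam1 at 0.172 and 10.7, and Ddr2 at 26.8 and 24.0. Not every gene kept the direction of its member there. Col6a3 (26.5 and 44.3), Col6a2 (76.1 and 101) and Bgn (105 and 106) were lower in Tdt+ cells, unlike Pdgfra and Pdgfrb. Wwtr1 (26.6 and 18.4) and Cast (10.4 and 9.39) were higher, unlike Pdgfd. Pdgfra, Pdgfrb and Pdgfd themselves were not called there. The other genes named here went the way of their member.

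Other genes of the pathway were examined in lists. Of 9 genes for cofactors and ligand processing 5 fell and 0 rose in SIX2+ cells with limma (0 rose at an unadjusted p under 0.05; median -1.16, against 0.04 over all genes tested), and 5 fell and 0 rose in GFP+ cells (0 rose at an unadjusted p under 0.05; median -1.54, against 0.09). That is 55.6% of the list in each sort, beside 15.9% of all genes tested that fell in SIX2+ and 17% in GFP+ cells. Plau, at 0.457 RPKM in SIX2+ and 0.519 in GFP+ cells, passed the filter through other libraries alone. It could hardly have been called higher. In SIX2+ cells the largest falls were those of Lox, a collagen cross-linking enzyme (-3.22 ± 0.52, limma adjusted p = 0.000347), Plau, the urokinase protease that can activate PDGF-D (-2.43 ± 0.37), and Lrp1, an endocytic receptor that associates with the beta receptor (-1.92 ± 0.20). In GFP+ cells Lox (-3.70 ± 0.52), Thbs1, a matrix protein that binds PDGF (-2.47 ± 0.40), and Plau (-2.16 ± 0.37) fell most. In Tdt+ cells Thbs1 (-1.98 ± 0.37) and Lox (-1.76 ± 0.26) fell, 2 of 9 genes or 22.2%, beside 7.21% of all genes tested. Lox lost its call without Tdt- library 1 or 2 (adjusted p = 0.0611 and 0.114), and Thbs1 without Tdt- library 2 (0.144).

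Of 21 signal transducers 1 rose and 4 fell in SIX2+ cells (median -0.05) and 1 rose and 5 fell in GFP+ cells (median -0.06), shares of 23.8% and 28.6% beside 24.3% and 32.9% of all genes tested. Pik3r1, a regulatory subunit of phosphoinositide 3-kinase, fell in both, with 3.85 ± 1.15 RPKM in SIX2+ and 17.1 ± 2.12 in SIX2- cells (-1.92 ± 0.21, limma adjusted p = 1e-05) and 10.6 ± 1.63 in GFP+ and 29.5 ± 3.57 in GFP- cells (SD, n = 3 each; -1.40 ± 0.21). The adaptor Nck2 fell in both as well (-0.60 ± 0.13 and -0.84 ± 0.13). Akt1, a kinase downstream of phosphoinositide 3-kinase, fell in SIX2+ cells (-0.55 ± 0.14, lost without SIX2+ library 2, adjusted p = 0.0545) and Stat3 in GFP+ cells (-0.97 ± 0.23). In Tdt+ cells 0 of the 21 were called with limma and 4 had an unadjusted p under 0.05, 3 of them higher; Pik3r1 was largest (0.65 ± 0.28, limma adjusted p = 0.218).

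Of 11 negative regulators 3 rose and 3 fell in SIX2+ cells and 2 rose and 3 fell in GFP+ cells. Those called were 54.5% and 45.5% of the list (medians 0.06 and 0.13), beside 24.3% and 32.9% of all genes tested. Grb10, an imprinted adaptor, rose in both, at 311 ± 15.7 RPKM in SIX2+ and 166 ± 13.5 in SIX2- cells (0.91 ± 0.14, limma adjusted p = 0.000317) and by 0.95 ± 0.14 in the reporter sort. The phosphatase gene Ptprj rose as well (0.79 ± 0.23 and 0.97 ± 0.23), in SIX2+ cells not without SIX2- library 1 (adjusted p = 0.0887) or SIX2+ library 2 (0.0738) or 3 (0.0716). Sla, an adaptor best known from lymphocytes, was called lower in both but stayed under 2 RPKM in all 4 group means (-0.84 and -1.29), and in SIX2+ cells lost its call when any 1 of the 6 libraries was left out (adjusted p = 0.0574 to 0.133), at a pseudocount of 5 (0.137) and after quantile normalisation (0.544). In Tdt+ cells 10 of the 11 were tested and 20% called, beside 8.43% of all genes; the ubiquitin ligase gene Cbl fell (-1.67 ± 0.24) and Spry4, a feedback inhibitor, rose (1.04 ± 0.24, limma adjusted p = 0.0354), and both lost their calls without Tdt- library 1 or 2 (adjusted p = 0.0956 and 0.136 for Cbl, 0.414 and 0.325 for Spry4).

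Of 12 immediate early genes tested 1 rose and 1 fell in each E16.5 sort, or 16.7% of the list, below the 24.3% of all genes tested that were called in SIX2+ and the 32.9% in GFP+ cells (list medians -0.17 and -0.73). Myc averaged 63.3 ± 3.08 RPKM in SIX2+ and 27.3 ± 3.82 in SIX2- cells (1.20 ± 0.26, limma adjusted p = 0.00385) and rose by 1.41 ± 0.26 in GFP+ cells. The chemokine gene Ccl2 fell in both (-1.62 ± 0.36 and -1.12 ± 0.36); in GFP+ cells it lost its call without GFP+ library 1, 2 or 3 (adjusted p = 0.0702, 0.053 and 0.0719) or GFP- library 1 or 2 (0.0774 and 0.0974), with a pseudocount of 5 (0.0792) and after quantile normalisation (0.0647). In Tdt+ cells Myc fell, 1 of 12 genes or 8.33%, beside 8.43% of all genes tested (-1.27 ± 0.21, limma adjusted p = 0.0102), a call lost without Tdt- library 1 (0.165) or 2 (0.173). Of 7 genes for the other class III receptors, relatives of the PDGF receptors, and their ligands, 4 passed the filter at E16.5. All 4 fell in SIX2+ cells and 3 were called lower in GFP+ cells, beside 15.9% and 17% of all genes tested (list medians -1.30 and -1.33). Csf1r, at 0.175 RPKM in SIX2+ and 0.128 in GFP+ cells, passed the filter through other libraries alone and could hardly have been called higher. Kitl was also low in SIX2+ cells, at 0.593 RPKM. Of the 3 called in GFP+ cells, Kit, a receptor of the class, had 2.55 ± 0.527 RPKM in GFP+ and 4.19 ± 0.409 in GFP- cells (SD, n = 3 each, -0.56 ± 0.20, limma adjusted p = 0.0429). Its call was lost with the replicate block (adjusted p = 0.0551), at a pseudocount of 5 (0.0507), without the filter (0.0651), in TPM (0.0681), after quantile normalisation (0.112) and when any 1 of the 6 GFP+ and GFP- libraries was left out (0.0561 to 0.162). Csf1r, the macrophage receptor, averaged 0.175 ± 0.178 RPKM in SIX2+ and 7.57 ± 1.27 in SIX2- cells (-2.87 ± 0.18, limma adjusted p = 6.02e-08). It fell by 3.18 ± 0.18 in GFP+ cells. In Tdt+ cells it averaged 0.452 RPKM, against 9.59 in Tdt- cells, and fell as well (-2.73 ± 0.41). At E14.5 it passed the filter through Tdt- libraries alone and could hardly have been called higher. Summed RPKM of 9 leukocyte markers was 9.96 to 15.3 in SIX2+ libraries, against 87.1 to 123 in SIX2- libraries, with none at 0, and its part in the Csf1r difference was not tested. Its ligand gene Csf1 (-1.31 ± 0.26) and Kitl, the ligand gene of KIT (-1.29 ± 0.30), fell in SIX2+ cells, Kitl not at a pseudocount of 5 (adjusted p = 0.053). Without a filter on low values Thbs1, Lox, Cbl, Spry4 and Csf1r lost their calls in Tdt+ cells (adjusted p = 0.0569 to 0.142), as did Spry4 in TPM (0.174).

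**Figure D5:**
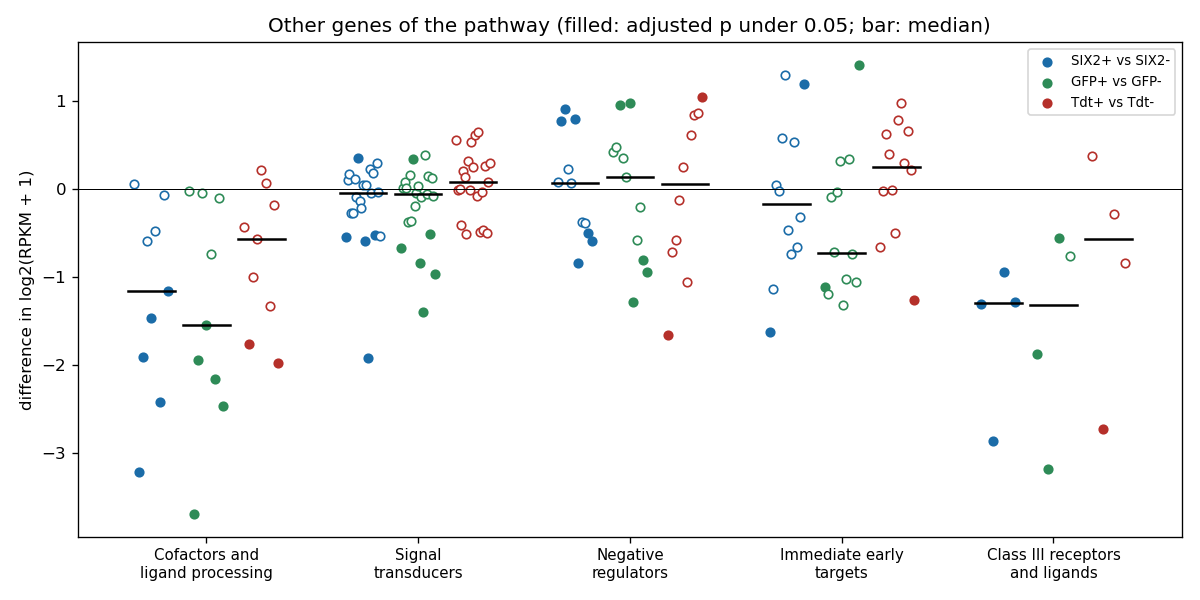
Difference in log2(RPKM + 1) for each tested gene of 5 pathway lists in the SIX2, GFP and Tdt sorts, positive minus negative cells, with a bar at the median of a list; filled points have an adjusted p under 0.05. Signal transducers centre near 0 (medians -0.05 and -0.06 in the E16.5 sorts), and cofactors and ligand processing genes lie lower in SIX2+ and GFP+ cells (medians -1.16 and -1.54).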

How the data were processed

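Poly(A) RNA libraries were made with a stranded mRNA kit from Kapa after RecoverAll or RNeasy Micro extraction, per the labels' protocols, which do not say which library had which extraction. TopHat2, Partek and mm10 are named without versions, per the submitters' processing notes. Neither annotation nor strand setting is given in the sources used here. The values the authors deposited were used as RPKM although the tables are titled TPM, because column sums differed (339454 to 429529 at E16.5, coefficient of variation 7.99%, and 342196 to 453324 at E14.5, 13.8%). Weighted by gene length they varied by 2.70% and 2.94%. The tests planned for TPM are the same for RPKM. Depth was estimated from the step that 1 read makes in low values. Only 29% to 41.8% of low values came out within 0.05 of a whole read, so reads were not recovered and no count test was run. Read numbers given for single values are therefore rough estimates.

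Each table was normalised on its own and tested on its own. limma 3.58.1 (R 4.3.3) was fitted to log2(RPKM + 1) with a trended prior, over all 5 E16.5 groups at once (10 residual degrees of freedom, 12817 genes) or both E14.5 groups (2, 12383 genes). Genes needed 1 RPKM in 3 E16.5 or 2 E14.5 libraries. A gene that passed through the libraries of 1 side of a sort could thus hardly be called higher on the other. In SIX2+ and GFP+ cells this holds at least for Plau, Sla, Ccl2, Csf1r, Pf4 and Gp1bb as well as for Pdgfb, Pdgfd and Pdgfra. In Tdt+ cells it holds at least for Csf1r and Pdgfb. P-values were adjusted by Benjamini-Hochberg over all genes tested and called under 0.05. The model was tested on simulated data. The genes, the pathway and marker lists and the rules were chosen with earlier results of these data known. Named beside the 6 genes are the 3 genes nearest to each by Pearson r (1 of them is not reported here), and up to 3 called genes of largest change, or the largest where none was called, from each pathway list in the SIX2, GFP and Tdt sorts. Lengths and positions are from GENCODE M21.

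Libraries carry replicate numbers, and same-numbered libraries deviated together in SIX2+ and SIX2- (r = 0.641, 0.279 and 0.676) and GFP+ and GFP- cells (0.455, 0.445 and 0.39). They also did in SIX2- and NZC (0.424, 0.194 and 0.497), SIX2- and GFP- (0.458, 0.44 and 0.552) and Tdt+ and Tdt- cells (0.399). Any pairing there was read from the data and not from the labels. The main fits ignored it, so SE and adjusted p are those of unpaired fits unless the block is named. Alternatives were pseudocounts of 0.1 and 5, no filter, TPM, quantile normalisation, a replicate block and leaving out each library.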

Additional observations from a re-analysis of the deposited data

Results flagged for a closer look

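Pdgfa was the 1 gene of the 6 whose difference between positive and negative cells was called as different between the antibody and reporter sorts. It was 0.41 ± 0.16 in log2(RPKM + 1) for SIX2+ against SIX2- cells and 1.85 ± 0.16 for GFP+ against GFP- cells, a difference of -1.44 ± 0.22 (SE, limma adjusted p = 0.0266). Over the libraries left out 1 at a time it ranged from -1.56 to -1.24, with adjusted p from 0.0138 to 0.109. The call was lost without any 1 of the GFP+, GFP- or SIX2+ libraries. Pdgfa averaged 33.7 RPKM in SIX2+ and 36.3 in GFP+ cells, but 25.6 in SIX2- and 9.43 in GFP- cells. Sort method, genotype and labelled source differ together between the sorts and cannot be told apart.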

How the results depend on the processing

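Of 630 alternative values for the 6 genes, 579 kept their direction and side of the threshold, 28 lost a call, 10 gained one and 13 changed sign; of 506 for the other named genes 51 lost a call. None of the sign changes passed the test. In SIX2- against NZC cells Pdgfa turned to -0.01 in TPM and -0.0055 after quantile normalisation. Leaving out 1 library gave -0.12 to 0.19 for Pdgfa, -0.62 to 0.20 for Pdgfd and -0.27 to 0.21 for Pdgfra there. In Tdt+ against Tdt- cells TPM turned Pdgfra to -0.022 and Pdgfrb to -0.046, and quantile normalisation turned Pdgfd to 0.0069. Leaving out 1 library gave -0.087 to 0.49 for Pdgfra, -0.10 to 0.46 for Pdgfrb and -0.026 to 0.074 for the log2 receptor ratio.

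Counts of called genes moved more. With replicate numbers as a block they were 2473 against 1424 in SIX2- against NZC, 2533 against 1296 in SIX2- against GFP-, 728 against 394 in SIX2+ against GFP+ and 2307 against 1044 in Tdt+ against Tdt- cells. In SIX2+ and GFP+ (r = 0.398, -0.017 and 0.584) and SIX2+ and NZC (0.28, 0.063 and 0.304) the numbers did not pair all libraries. The block changed the calls of Pdgfc in SIX2- against NZC and Pdgfd in SIX2- against GFP- cells and no other call of the 6 genes. TPM gave 774 in SIX2- against NZC. The 18 genes of the sort difference became 8 in TPM, 11 without the filter and 38 with 5 as the pseudocount, and the Tdt count became 229 without the filter. Leaving out 1 library gave 364 to 2425 genes in SIX2- against NZC, 204 to 3266 in SIX2- against GFP-, 132 to 985 in SIX2+ against GFP+, 1 to 91 in the sort difference and 337 to 3336 in Tdt+ against Tdt- cells; NZC library 2, the shallowest, gave the highs of 3266, 985 and 91. The cause was not tested.

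Scaling moved the split of genes called higher and lower: 1073 and 2036 in SIX2+ against SIX2- became 1578 and 1574 after quantile normalisation, 2035 and 2184 in GFP+ against GFP- became 1319 and 2251 in TPM, 2320 and 2377 in SIX2+ against NZC became 1203 and 2408 in TPM, 661 and 763 in SIX2- against NZC became 146 and 628 in TPM, 730 and 566 in SIX2- against GFP- became 221 and 660 in TPM and 498 and 824 after quantile normalisation, 6 and 12 in the sort difference became 8 and 7 after quantile normalisation, and 151 and 893 in Tdt+ against Tdt- became 239 and 483 after quantile normalisation. TPM moved the all-gene median to -0.26, against -0.04, in Tdt+ against Tdt- and to -0.07, against 0.10, in SIX2- against GFP- cells. Depth limits Pdgfb most, at an estimated 25.3 reads or fewer in SIX2+ libraries and at 0 in a Tdt+ library.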

Other observations

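Pdgfrl, a gene named for its likeness to the PDGF receptors, without a kinase domain, was looked up after its values were seen. It ran with the progenitor fractions and not with Pdgfra or Pdgfrb. It averaged 5.37 ± 1.68 RPKM in SIX2+ cells, 2.65 ± 0.937 in SIX2- cells and 3.95 ± 0.568 in NZC, and 9.42 ± 0.0774 in GFP+ and 1.99 ± 0.136 in GFP- cells (SD, n = 3 each). The highest SIX2- library, at 3.73 RPKM, lay above the lowest SIX2+ library, at 3.43 RPKM, while GFP+ libraries did not overlap GFP- libraries. At E14.5 it averaged 1.91 RPKM in Tdt+ and 2.30 in Tdt- cells (n = 2 each).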
